A study of Sus scrofa with 30 samples.

Results

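The 10 genes described here carry fatty acids from blood lipid into triglyceride, the main fat of milk: LPL, VLDLR, CD36 and FABP3 in uptake, ACSL1 in activation, and GPAM, AGPAT1, LPIN1, DGAT1 and DGAT2 in assembly. They were chosen by name, all of their transcripts under the RefSeq annotation of Sscrofa11.1 were taken, and the transcripts were summed per gene. This gave 27 of the 61773 transcripts and 10 of the 26012 genes or loci in the table. The RNA came from mammary gland of multiparous half-sibling sows of a Danish Landrace × Yorkshire cross, housed alike, and no treatment or genetic change is named for any of them. The stages were mid-gestation (MG, gestation day 70), late gestation (LG, gestation day 110), early lactation (EL, postpartum day 2), peak lactation (PL, postpartum day 10) and the early dry period (W2, day 2 from weaning). Each stage had 6 sows, and no sow was sampled at more than 1 stage.

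Triglycerides in circulating lipoproteins are too large to enter cells. LPL, lipoprotein lipase, cuts them at the capillary wall, VLDLR binds triglyceride-rich particles there, CD36 helps the released fatty acids cross the membrane, and FABP3 binds them in the cytosol. Acyl-CoA synthetases such as ACSL1 activate them, GPAM and AGPAT1 place the first acyl chains on the glycerol backbone, LPIN1 removes the phosphate, and DGAT1 and DGAT2 add the last chain.

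Although the authors name the deposited values FPKM, the total of a column lies between 997480.4 and 1002643.1, which is the scale of TPM, and the text speaks of units. They are scaled for transcript length, so levels of different genes can be set side by side. At each stage, 3 samples were close to copies. Differences were taken as the median over the transcripts compared, 5793 to 8632 by stage. Between any pair of these 3 they reached 1.80% to 1.85%, against 19.6% to 59.8% between pairs of the remaining 3. The means of both groups differed by 0.688% to 0.741%. These medians do not bound single genes, and low ones could differ more, either way. Near-copies and remaining samples had mean LPIN1 of 3.20 and 2.13 units in LG. Mean AGPAT1 was 0.766 and 0.224 in EL, and 0.415 and 0.701 in PL. The near-copies were not counted, which left n = 3 sows per stage and 15 in all. The stage given in the records of the EL and MG samples is swapped against their titles, and the titles were followed. The summed share of 6 milk protein genes, markers of the secreting epithelium, was 1.19% to 2.95% of all units in MG, 3.40% to 5.94% in LG, 6.40% to 12.1% in EL, 9.14% to 28.5% in PL and 0.579% to 0.816% in W2. All 6 luminal epithelial markers looked for were measured, as were 4 of 7 adipocyte markers. ADIPOQ and PLIN1, which define adipocytes, and 5 markers of striated muscle were not analysed here. The paper lists the mapped reads of each library and points to a matrix of raw counts, which was not used here. Without reads per transcript, single values carry no counting interval. P-values measure the spread between these sows.

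The columns have nearly the same sum, so the share of milk protein transcripts and the levels of the other genes are tied, and the part of this in the values below was not tested. Over 23590 genes with a stage mean of at least 1 unit, the median log2 fold change as deposited was -0.61 in PL vs MG, -0.48 in PL vs LG, 0.73 in W2 vs PL and -0.48 in lactation (EL and PL) vs outside lactation (MG, LG and W2). Scaling by the median ratio of abundant genes brought these medians to -0.06, -0.07, 0.10 and -0.10. These medians are the background for the changes below, and the value after that scaling is given where a call changes. The scaling divided each sow by a factor, 0.566 in PL replicate 2, 0.840 and 0.839 in PL replicates 3 and 6 and 1.11 to 1.23 in MG. Sows were left out in turn from the deposited values only, not after scaling.

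FABP3 dominated the set. On the scale of units per length, it made up 87.0% to 96.2% of the summed units of the 10 genes in each sow, with a mean of 5139 units over the 15 sows, above 99.9% of the 14951 reference genes. LPL followed at a mean of 342 units, then GPAM at 46.4, CD36 at 26.5, VLDLR at 15.0, DGAT1 at 8.96, ACSL1 at 4.22, LPIN1 at 3.07, DGAT2 at 2.34 and AGPAT1 at 0.420 units. The lowest FABP3 value, 3396 units, lay above the highest LPL value, 685 units. Every other pair of neighbours in this order overlapped in its range over the sows. AGPAT1, the acyltransferase of the second step, was near the bottom of the table and reached a mean of 1 unit in no stage.

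**Figure D1:**
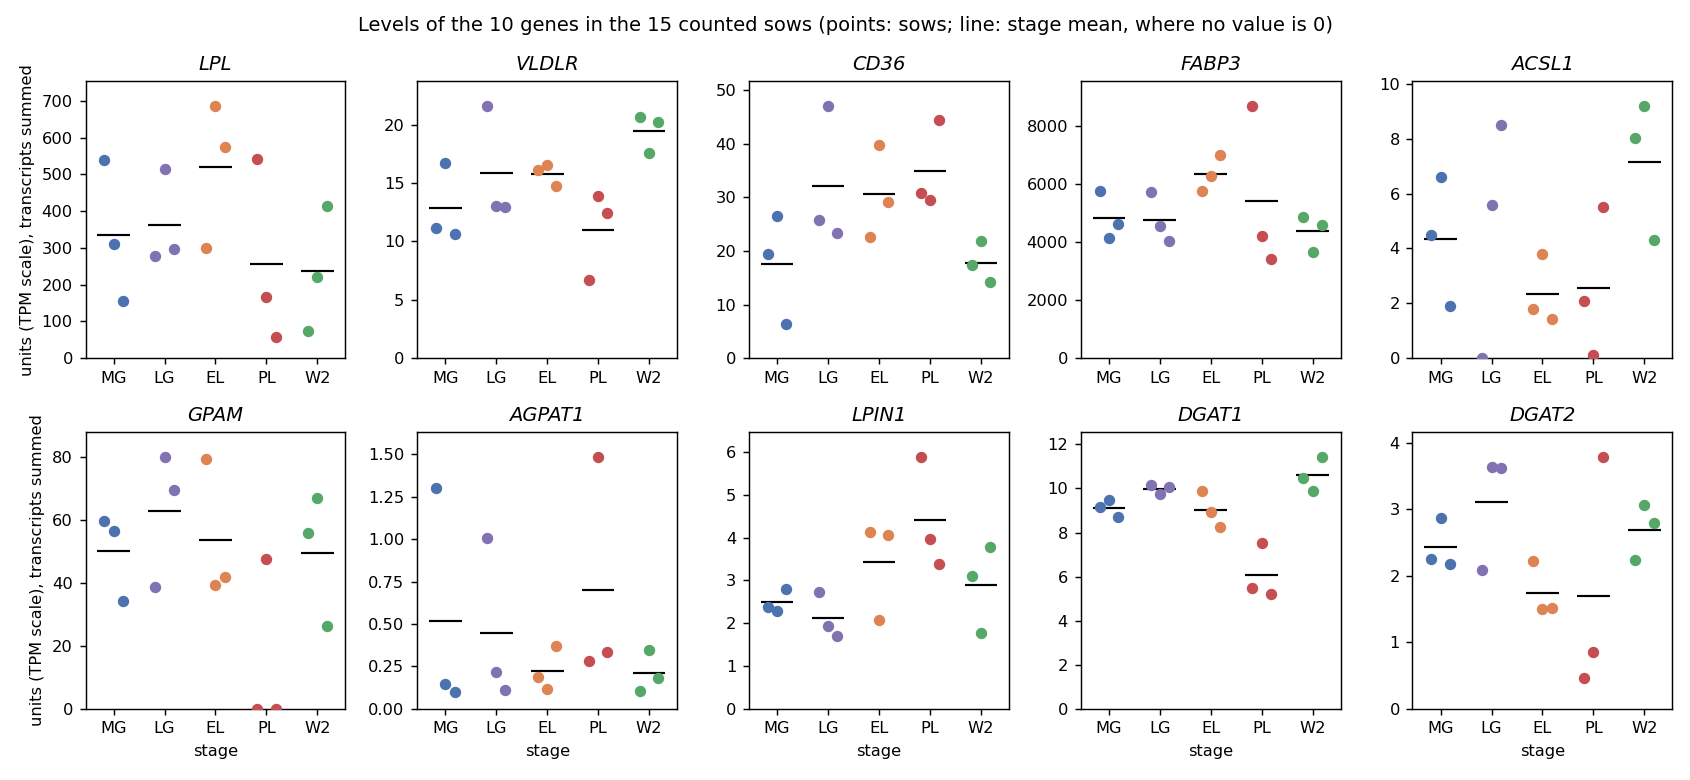
Level of each gene by stage, as the sum of its transcripts in units on the TPM scale (vertical axis, linear and starting at 0), in MG, LG, EL, PL and W2. Points are the 3 counted sows of a stage and the line is their mean, left out where a sow is listed at 0; DGAT1 was lowest in the 3 PL sows and GPAM was listed at 0 in 2 of them, while LPL spread widely within every stage.

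LPL, the enzyme that releases fatty acids from lipoproteins, varied widely between sows of a stage, and stage accounted for 29.4% of the variance of its log2 values. It was measured at 538, 310.4 and 155 units in MG, 278, 514 and 298 in LG, 300.2, 685 and 574 in EL, 542, 166 and 57.6 in PL and 73.9, 219 and 414 in W2. The stage ranges overlapped in every pair of stages. The highest mean was in EL, at 520 ± 198 units (SD, n = 3), against 363 ± 131 in LG and 255 ± 254 in PL, and the spread within PL was 9.41-fold. Its log2 fold change was 0.49 in EL vs LG (95% CI -1.21 to 2.19, adjusted p = 0.881), -1.50 in PL vs EL (-3.19 to 0.20, 0.330) and 0.12 in lactation vs outside lactation (-0.98 to 1.21, 0.875). Neither a rise nor a fall passed the test, and the intervals allow changes of several fold. In PL, the sow with the most LPL was also the one with the highest share of milk protein units (28.5%, against 13.9% and 9.14%), and the part of that share in the LPL value was not tested.

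VLDLR, the receptor for very low density lipoproteins, was higher in W2 than in PL. It stood at 11.2, 16.7 and 10.6 units in MG, 21.6, 13.0 and 12.9 in LG, 16.1, 16.5 and 14.8 in EL, 6.68, 13.9 and 12.4 in PL and 20.6, 17.6 and 20.2 in W2. The W2 sows all lay above the PL, EL and MG sows, and the lowest value of all came from a PL sow. As deposited, the log2 fold change in W2 vs PL was 0.85 (SE 0.28, adjusted p = 0.035), close to the 0.73 of the median gene. After median ratio scaling it was 0.14 (adjusted p = 0.748), and without PL replicate 2, the lowest sow, it was 0.55 (adjusted p = 0.117). Leaving out any of the W2 sows also ended the call, with adjusted p between 0.061 and 0.088.

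CD36, the membrane protein that facilitates fatty acid entry, had its highest mean in PL (34.9 ± 8.21 units, SD, n = 3) and its lowest in MG (17.5 ± 10.2) and W2 (17.8 ± 3.83). The MG sows stood at 19.5, 26.6 and 6.40 units, the LG sows at 25.7, 47.0 and 23.4, the EL sows at 22.6, 39.8 and 29.1, the PL sows at 30.7, 29.6 and 44.3 and the W2 sows at 17.3, 21.8 and 14.2. Every PL sow lay above every MG and W2 sow, and every W2 sow lay below every sow of LG, EL and PL. As deposited, no change passed the test: the log2 fold change was 1.00 in LG vs MG (95% CI 0.04 to 1.96, adjusted p = 1), 1.17 in PL vs MG (0.20 to 2.13, 0.072), -0.95 in W2 vs PL (-1.91 to 0.01, 0.119) and 0.66 in lactation vs outside lactation (0.04 to 1.28, 0.093). With median ratio scaling the last 3 passed, at 1.81 (adjusted p = 0.025), -1.68 (0.033) and 1.12 (0.030). Leaving out MG replicate 3, the highest MG sow, also brought the deposited values past the threshold in PL vs MG (1.57, adjusted p = 0.040) and in lactation vs outside lactation (0.79, adjusted p = 0.045). Leaving out MG replicate 6 did so in W2 vs PL (-0.95, adjusted p = 0.037). That sow is not in this comparison, so the fold change stayed the same and only the spread fitted over all stages and the adjustment could move.

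FABP3, the cytosolic fatty acid carrier, was high in every sow. Its values were 5733, 4116 and 4604 units in MG, 5699, 4528.5 and 4023 in LG, 5757, 6278 and 6986 in EL, 8664, 4193 and 3396 in PL and 4859, 3667 and 4579.7 in W2. The EL sows all lay above the sows of MG, LG and W2, and PL held both the highest and the lowest value of the series. The log2 fold change was 0.43 in EL vs LG (95% CI -0.19 to 1.04, adjusted p = 0.794), -0.34 in PL vs EL (-0.96 to 0.27, 0.564) and 0.29 in lactation vs outside lactation (-0.11 to 0.68, 0.245). Median ratio scaling moved the lactation value to 0.76 (adjusted p = 0.077) and that of W2 vs PL from -0.20 to -0.94 (adjusted p = 0.144). The PL order was that of the milk protein share, with replicate 2 on top. Without PL replicate 2, FABP3 was lower in PL than in EL by a log2 fold change of -0.74 (adjusted p = 0.037), and the sign of W2 vs PL turned from -0.20 to 0.20. FABP3 therefore did not pass the test in any comparison with all counted sows, and the call in PL vs EL rests on whether that library is kept.

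ACSL1, a long-chain acyl-CoA synthetase, was a low-level gene with wide scatter. It was found at 4.48, 6.61 and 1.89 units in MG, 0, 5.59 and 8.50 in LG, 1.81, 3.80 and 1.43 in EL, 2.10, 0.0994 and 5.50 in PL and 8.01, 9.19 and 4.31 in W2. All 3 W2 sows were above the EL sows, while a sow of LG was listed at 0. The log2 fold change was 1.80 in W2 vs PL (95% CI -0.39 to 4.00, adjusted p = 0.190) and -0.95 in lactation vs outside lactation (-2.37 to 0.46, 0.279). No difference passed the test.

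GPAM, the mitochondrial enzyme that starts glycerolipid synthesis, had the largest fitted differences of the 10 genes, all of them against PL. The MG sows had 59.6, 56.6 and 34.2 units, the LG sows 38.6, 80.1 and 69.6, the EL sows 79.5, 39.2 and 41.9 and the W2 sows 55.7, 67.0 and 26.2. In PL, replicate 3 had 47.5 units, within the range of the other stages, whereas replicates 2 and 6 were listed at 0. The fitted log2 fold change was -4.43 in PL vs MG (SE 1.31, adjusted p = 0.028), -4.72 in PL vs LG (adjusted p = 0.031) and 4.35 in W2 vs PL (adjusted p = 0.024). These sizes depend on the 0.5 added before taking logs: in PL vs MG the value was -5.97 with 0.1 and -3.77 with 1 added. After median ratio scaling the differences were -4.13, -4.57 and 3.97 and missed the threshold (adjusted p = 0.076, 0.060 and 0.079). Leaving out PL replicate 2 or 6, or any sow of MG or LG that entered the comparison, also ended the calls in PL vs MG (adjusted p 0.058 to 0.112) and PL vs LG (0.064 to 0.114), as did leaving out PL replicate 2 or 6 or W2 replicate 2 or 3 in W2 vs PL (0.062 to 0.104). In lactation vs outside lactation the log2 fold change was -2.26 (adjusted p = 0.056). Without PL replicate 3 it was -3.35 (adjusted p = 9.6e-05), a fit in which every PL sow was listed at 0. An exact 0 for so abundant a gene was rare but not confined to GPAM. Of 3867 reference genes with at least 10 units in all 12 counted sows outside PL, 31 were at 0 in at least 1 PL sow and 6 in at least 2. Those 6 were BPHL, GPAM, PABPC1, PUM3, ZNF32 and ZNF703, among which PABPC1, a poly(A)-binding protein that cells in general use, was at 0 in all 3 PL sows. Taking each of the other stages in place of PL, the count at 0 in at least 2 sows was 0. GPAM is therefore described as listed at 0, and whether its RNA was missing from those sows cannot be read from these values.

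AGPAT1, which adds the second acyl chain, was listed below 1.5 units in all sows. The values were 1.30, 0.146 and 0.0965 units in MG, 1.01, 0.219 and 0.110 in LG, 0.185, 0.117 and 0.370 in EL, 0.281, 1.48 and 0.337 in PL and 0.108, 0.348 and 0.183 in W2. A single sow stood high in each of MG, LG and PL, and the stages overlapped. Its log2 fold change in lactation vs outside lactation was 0.11 (95% CI -0.59 to 0.82, adjusted p = 0.805).

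LPIN1, a phosphatidate phosphatase that makes diacylglycerol, had its highest means in PL (4.41 ± 1.31 units, SD, n = 3) and EL (3.42 ± 1.16). It was measured at 2.39, 2.29 and 2.81 units in MG, 2.74, 1.93 and 1.71 in LG, 4.12, 2.08 and 4.07 in EL, 5.88, 3.97 and 3.37 in PL and 3.10, 1.77 and 3.78 in W2. The PL sows all lay above the MG and LG sows and overlapped with EL and W2. As deposited, the log2 fold change was 0.54 in lactation vs outside lactation (95% CI 0.09 to 0.99, adjusted p = 0.063), 0.68 in PL vs MG (adjusted p = 0.139), 0.89 in PL vs LG (adjusted p = 0.082) and -0.55 in W2 vs PL (adjusted p = 0.206). Median ratio scaling gave 0.95 (adjusted p = 0.019), 1.27 (0.038), 1.35 (0.034) and -1.21 (0.042), all past the threshold. PL replicate 2, with the highest LPIN1 value, also had the smallest scaling factor (0.566), and these scaled calls were not refitted without it. Leaving out EL replicate 4, PL replicate 6 or W2 replicate 6 also took the deposited lactation value past it (0.60 to 0.68, adjusted p 0.032 to 0.0497).

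DGAT1, which adds the last acyl chain, was the gene of the 10 with the largest share of variance between stages. The values were 9.16, 9.46 and 8.73 units in MG, 10.1, 9.74 and 10.1 in LG, 9.88, 8.92 and 8.24 in EL, 5.47, 7.54 and 5.22 in PL and 10.5, 9.90 and 11.4 in W2. Every PL sow lay below every other sow. Stage accounted for 84.3% of the variance of its log2 values, against a median of 46.5% over all 23590 genes. As deposited, DGAT1 fell in PL vs LG (log2 fold change -0.69, SE 0.17, adjusted p = 0.020), in PL vs MG (-0.56, adjusted p = 0.031) and in lactation vs outside lactation (-0.40, adjusted p = 0.016), and rose in W2 vs PL (0.77, adjusted p = 0.0056). Each of these was near the change of the median gene (-0.48, -0.61, -0.48 and 0.73). After median ratio scaling the differences were -0.21, 0.056, 0.042 and 0.070, none of which passed the test (adjusted p 0.476 to 0.885), so no direction is read for DGAT1 after scaling, where the values in PL vs MG and in lactation were just above 0 and well within their error. As deposited, leaving out any MG sow or PL replicate 6 ended the PL vs MG call (adjusted p 0.060 to 0.088) and leaving out LG replicate 1 or 4 the PL vs LG call (0.057 and 0.062), whereas the W2 vs PL and lactation calls held without each of the 15 sows in turn.

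DGAT2, the unrelated second enzyme for the same step, was measured at 2.25, 2.87 and 2.18 units in MG, 2.09, 3.64 and 3.62 in LG, 2.22, 1.50 and 1.52 in EL, 0.461, 0.848 and 3.79 in PL and 2.24, 3.06 and 2.80 in W2. The PL sows held both the lowest values and the highest one. Its log2 fold change was -0.69 in lactation vs outside lactation (95% CI -1.32 to -0.06, adjusted p = 0.084) and 0.84 in W2 vs PL (-0.13 to 1.82, 0.167). Without PL replicate 6, the high sow, these were -1.01 (adjusted p = 0.0027) and 1.48 (adjusted p = 0.0041), and PL vs MG was -1.36 (adjusted p = 0.0083), so the call rests on that library.

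Counted together as deposited, few of the 10 genes passed an adjusted p of 0.05. In PL vs MG 2 of 10 did, both lower (GPAM and DGAT1), against 25.2% of all genes, of which most were lower (23.0% of all genes). In PL vs LG it was the same 2 of 10, both lower, against 14.7% (13.1% lower). In W2 vs PL 3 of 10 were higher (VLDLR, GPAM and DGAT1) and none lower, against 32.8% of all genes called and 30.4% called higher. In lactation vs outside lactation 1 of 10 was called, DGAT1, lower, against 33.8% (31.5% lower). The share of the 10 was below the background in lactation and near it in the other 3. With a log2 fold change of 2 or more also required, GPAM alone remained, 1 of 10 in PL vs MG (3.96% of all genes), PL vs LG (2.70%) and W2 vs PL (5.22%), and none did in lactation vs outside lactation (1.32%). None of the 10 was called by limma in PL vs EL, where 4.62% of all genes were, nor in W2 vs EL (0.554%), W2 vs LG (0.0346%), EL vs MG (0.0269%), EL vs LG (0.0154%), LG vs MG (0.0115%) and W2 vs MG (0.0115%). At an unadjusted p below 0.05 they were GPAM and DGAT1 in PL vs EL (19.0% of all genes), CD36 in LG vs MG (4.43%) and in EL vs MG (15.9%), and none in EL vs LG (6.19%), W2 vs EL (25.1%), W2 vs LG (7.57%) and W2 vs MG (3.09%).

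**Figure D2:**
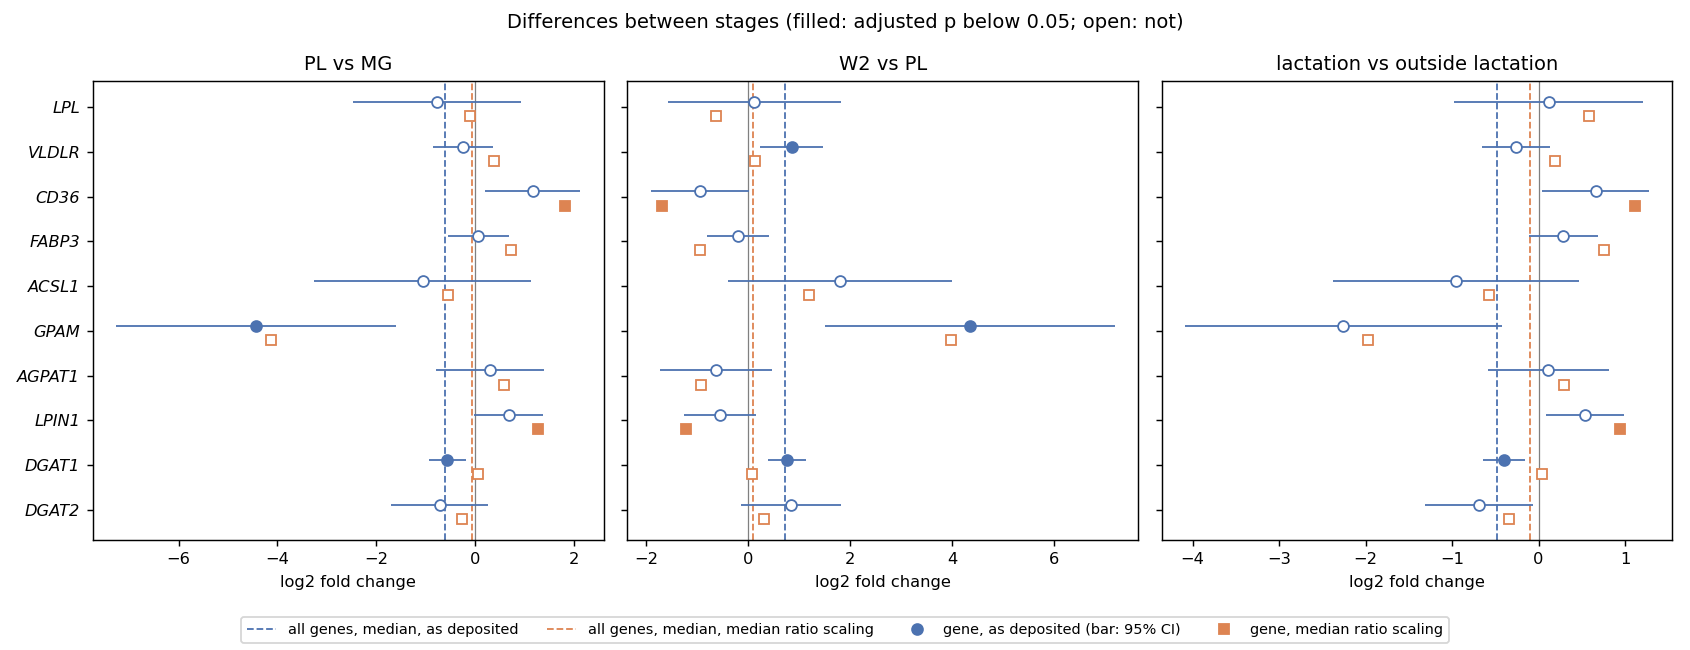
Log2 fold change of each gene (horizontal axis) in PL vs MG, W2 vs PL and lactation vs outside lactation. Blue circles with 95% confidence intervals are the values as deposited, orange squares the values after median ratio scaling, filled where the adjusted p was below 0.05, and the dashed lines are the median of all genes under each; DGAT1 lay close to the dashed line under both, while CD36 and LPIN1 lay on the side of lactation and were filled only after scaling.

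After median ratio scaling the called genes were different ones. CD36 and LPIN1 were called higher in PL vs MG (2 of 10, against 11.0% of all genes called and 5.04% called higher), lower in W2 vs PL (2 of 10, against 13.1% and 5.66% lower) and higher in lactation vs outside lactation (2 of 10, against 11.8% and 4.71% higher), and LPIN1 alone was called higher in PL vs LG (1 of 10, against 8.94% and 3.79% higher). GPAM, DGAT1 and VLDLR were not called there. None of these scaled calls was refitted without single sows. Against the median gene, 7 of the 10 lay above it in lactation vs outside lactation under either scaling, with a median of the 10 of -0.07 as deposited, beside -0.48 over all genes, and of 0.24 after scaling, beside -0.10. The 3 that lay below were ACSL1, GPAM and DGAT2. In a bulk sample, more RNA per cell and more cells of the type that holds it cannot be told apart.

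The number of the 10 genes whose groups of sows did not overlap varied between comparisons. In PL vs MG 3 of 10 genes separated fully (CD36 and LPIN1 higher, DGAT1 lower), against 39.2% of all genes (3.36% higher, 35.9% lower). In W2 vs PL 3 of 10 did (VLDLR and DGAT1 higher, CD36 lower), against 44.0% (40.6% higher, 3.37% lower). The W2 vs EL comparison separated 6 of 10 (VLDLR, ACSL1, DGAT1 and DGAT2 higher, CD36 and FABP3 lower), against 38.2% (35.5% higher, 2.68% lower). In W2 vs MG 2 of 10 separated (VLDLR and DGAT1 higher), against 10.4% (8.20% higher). In PL vs LG it was 2 of 10 (LPIN1 higher, DGAT1 lower), against 33.9% (3.42% higher, 30.5% lower). In PL vs EL it was 2 of 10 (VLDLR and DGAT1 lower), against 18.8% (15.8% lower). A single gene separated in EL vs LG (FABP3 higher, against 18.1%, with 2.13% higher) and EL vs MG (FABP3 higher, 29.9%, with 2.40% higher). The same held for LG vs MG (DGAT1 higher, 14.4%, with 3.03% higher) and W2 vs LG (CD36 lower, 22.1%, with 2.5% lower).

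Transcripts behind the gene sums shifted from sow to sow. CD36 had 11 transcripts in the table, and 5 different ones led in the 15 sows, with NM_001044622.1 leading in 8. VLDLR had 4, of which XM_021084269.1 held 44.7% of the summed units and XM_021084248.1 was above 0 in only 2 sows, PL replicate 3 (7.04 units) and W2 replicate 6 (8.63 units). The 2 LPIN1 transcripts differed in which sows they led: XM_021085569.1 was above 0 in 3 sows, at 4.07 units in EL replicate 6, 5.76 in PL replicate 2 and 3.78 in W2 replicate 6, and these were the 3 sows in which XM_021085568.1 was below 1 unit. DGAT1 was carried by NM_214051.1, with 75.0% of its units, and XM_021088697.1, with 22.2%. NM_214051.1 had a mean of 4.20 units in MG and 8.51 in LG, against 4.21 and 0.922 units for XM_021088697.1, and neither difference passed the test. ACSL1 had 2 transcripts, of which NM_001167629.2 was listed at 0 in all 3 PL sows. LPL, FABP3, GPAM, DGAT2 and AGPAT1 had a single transcript each. No transcript of the 10 genes passed limma's test in any comparison, while 4.28% of all transcripts did in PL vs MG, 2.26% in PL vs LG, 7.13% in W2 vs PL and 6.43% in lactation vs outside lactation. Reads shared between overlapping transcripts are divided by the assembler, which could move units between the transcripts of a gene.

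**Figure D3:**
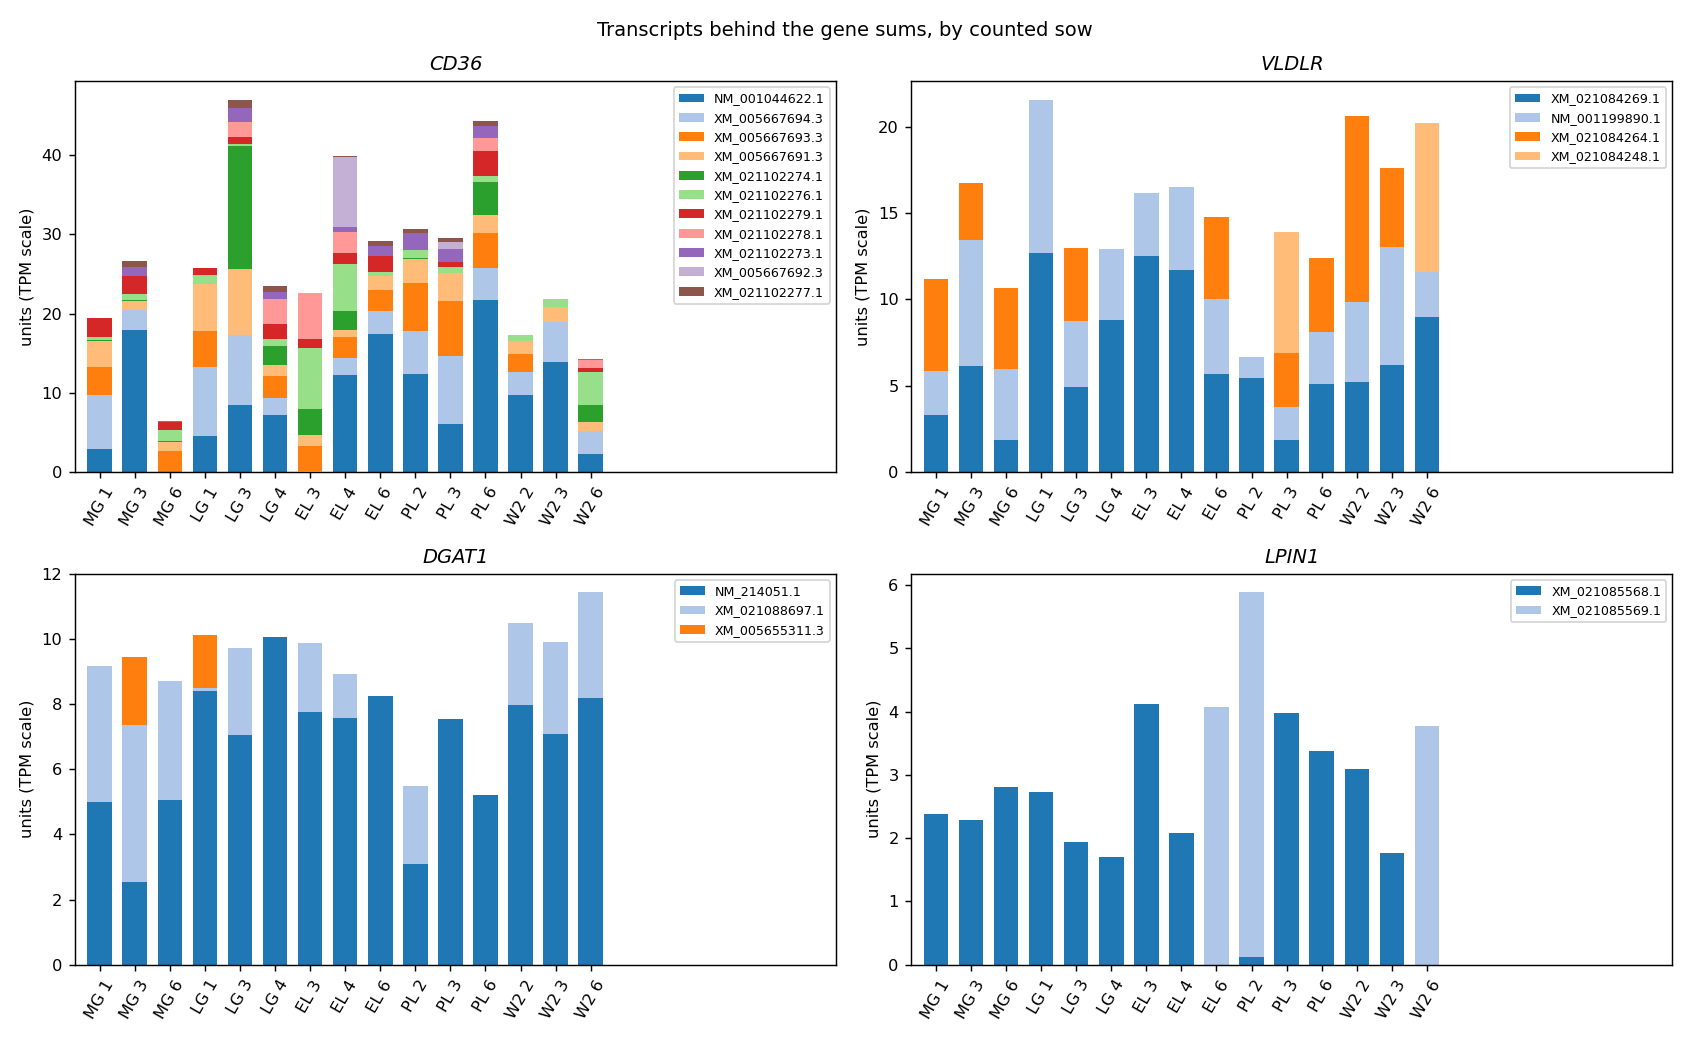
Units on the TPM scale (vertical axis, starting at 0) of each transcript of CD36, VLDLR, DGAT1 and LPIN1 in the 15 counted sows (horizontal axis, stage and replicate number). Colours are transcripts stacked to the gene sum; the LPIN1 bars consist almost wholly of XM_021085568.1 in 12 sows and of XM_021085569.1 in 3.

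The genes lie on 8 chromosomes of Sscrofa11.1. VLDLR is at chr1:219178501-219210332, LPIN1 at chr3:124940557-125074137, DGAT1 at chr4:452890-463665, FABP3 at chr6:87943003-87950708 and AGPAT1 at chr7:24205930-24208430. Chromosome 9 holds DGAT2 (chr9:10032163-10066082) and CD36 (chr9:99685748-99782296), chromosome 14 holds LPL (chr14:4104761-4134964) and GPAM (chr14:122538600-122582390), and ACSL1 is at chr15:45866858-45936327. The table held all annotated transcripts of CD36, FABP3, GPAM, DGAT1, DGAT2 and AGPAT1, but 1 of 2 of LPL, 4 of 8 of VLDLR, 2 of 8 of LPIN1 and 2 of 9 of ACSL1. A further 29047 transcripts (47.0%) were assembled by the authors and carry no gene name or position, so any that belong to these genes are not in the sums.

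Ratios between genes of neighbouring steps depend on the scaling of sows only through the 0.5 added to each sum. In all, 4 were formed within each sow and compared between the 6 sows of EL and PL and the 9 others by an exact permutation test (two-sided, smallest possible p 0.0002). The log2 ratio of DGAT1 to DGAT2 was 1.98 ± 0.816 (SD, n = 6) in lactation and 1.70 ± 0.266 (n = 9) outside it (exact p = 0.351). FABP3 to CD36 was 7.43 ± 0.704 and 7.81 ± 0.800 (exact p = 0.377), and LPL to VLDLR 4.45 ± 1.46 and 4.07 ± 1.08 (exact p = 0.571). AGPAT1 to GPAM was -3.62 ± 3.42 and -5.99 ± 0.796 (exact p = 0.052), a difference carried by the 2 PL sows in which GPAM was listed at 0. None of the 4 passed after Benjamini-Hochberg adjustment (adjusted p 0.207 to 0.571). The DGAT1 to DGAT2 ratio was lowest in PL replicate 6, at 0.41 on the log2 scale, and without that sow the difference was 0.60 (adjusted exact p = 0.0100).

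Further genes of the pathway were taken from 6 lists. Among 6 further genes of acyl-CoA synthesis and binding, 1 was called higher and 3 lower in PL vs MG, where 25.2% of all genes were called and 23.0% called lower, and 3 higher and 1 lower in W2 vs PL, where 32.8% were called and 30.4% called higher. The same shares are the background for the counts of the other lists as deposited. ACSL3, an acyl-CoA synthetase, stood at 83.1 to 112 units in MG, 758, 241 and 167 in PL and 95.2 to 106 in W2. Its log2 fold change was 1.70 in PL vs MG (adjusted p = 0.013) and -1.62 in W2 vs PL (adjusted p = 0.012). DBI, which binds acyl-CoA, went the other way, from 1009 to 1791 units in MG to 358, 345 and 204 in PL, with a log2 fold change of -2.19 in PL vs MG (adjusted p = 0.00017) and 2.21 in W2 vs PL (adjusted p = 0.00014). Both kept their direction and their call after median ratio scaling (ACSL3 2.36 and -2.37, DBI -1.53 and 1.47). ACSL4 and ACSS2, called lower in PL vs MG as deposited, were not called in that comparison after scaling. In PL vs LG, ACSS2 was called lower as deposited, after median ratio scaling and after quantile normalization.

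Of 13 further genes of uptake and binding, 9 were measured and 4 were called lower in PL vs MG (FABP4, FABP5, SCARB1 and CAV1), while 4 were called higher in W2 vs PL (SLC27A1, FABP4, FABP5 and CAV1). FABP4, an adipocyte fatty acid carrier, stood at 441 to 730 units in MG and 331, 370.2 and 234 in PL, with a log2 fold change of -0.99 in PL vs MG (adjusted p = 0.0048). FABP5 had means of 432 units in MG and 187 in PL, with a log2 fold change of -1.19 (limma adjusted p = 0.00048). After median ratio scaling none of these was called in either comparison, and SLC27A4, a fatty acid transporter outside the naming rule and singled out after its values were seen, was called higher in PL vs MG (log2 fold change 1.58, adjusted p = 0.0061). After quantile normalization FABP5 was still called lower in PL vs MG, and FABP5 and CAV1 higher in W2 vs PL. SLC27A4 was called higher in PL vs MG there too. The summed adipocyte markers, nearly all of them FABP4, were 254 to 391 units in PL, below the 446 to 734 units of the other stages. Their part in the levels of LPL, CD36, GPAM and DGAT2, which adipocytes also express, was not tested. Sums of some other markers were also lower in PL than in W2: 19.6 to 34.8 against 61.6 to 72.5 units for 4 of 5 macrophage markers and 72.9 to 106.9 against 116.9 to 132 for 4 of 5 endothelial markers. The sums of the remaining non-milk lists overlapped between PL and W2. They were 837 to 1766 against 1476 to 1992 units (luminal), 743 to 1888.5 against 1393 to 1673 (myoepithelial) and 9.18 to 14.9 against 11.3 to 23.9 (lymphocyte). The median log2 fold change in W2 vs PL was 1.65 over the macrophage markers and 0.57 over the endothelial ones, beside 0.73 for the median gene. Neither list was tested after scaling. The smallest adjusted p of each list belonged to CSF1R, a macrophage receptor (log2 fold change 2.52, adjusted p = 0.0025), and KDR, an endothelial receptor (1.24, adjusted p = 0.0040). TEK, another endothelial receptor, went the other way, with a mean of 5.19 units in PL and 4.48 in W2. The part of these markers in the levels of CD36 and VLDLR was not tested. LEP, the adipocyte hormone leptin, was called higher in PL vs MG (log2 fold change 3.39, adjusted p = 0.0042), against the sum of its list.

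Among 16 further enzymes of glycerolipid assembly, 14 were measured, and AGPAT3 was called higher and AGPAT5 lower in PL vs MG. AGPAT3, an acyltransferase, stood at 8.44 to 11.4 units in MG, 10.9, 31.1 and 44.8 in PL and 5.54 to 11.6 in W2, with a log2 fold change of 1.31 in PL vs MG (adjusted p = 0.040) and 1.95 after median ratio scaling (adjusted p = 0.0027). AGPAT5 fell by 1.87 on the log2 scale as deposited (adjusted p = 0.0098), stood at -1.30 after median ratio scaling (adjusted p = 0.051) and was called lower after quantile normalization (-1.29, adjusted p = 0.045). LPIN2, a lipin outside the naming rule and singled out after its values were seen, was called higher in PL vs MG after median ratio scaling (1.79, adjusted p = 0.0022). GK, glycerol kinase, was called higher in lactation vs outside lactation under both.

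Among 13 genes of triglyceride breakdown and the lipid droplet coat, 12 were measured, and as deposited CIDEA alone was called in PL vs MG, higher. There, 3 were called higher after median ratio scaling, CIDEA and, outside the naming rule and singled out after their values were seen, the lipases PNPLA2 (1.27, adjusted p = 0.031) and MGLL (0.97, adjusted p = 0.0019). CIDEA, a lipid droplet protein, was listed at 0 in the 3 MG sows and at or below 0.472 units in the 12 sows outside PL, against 38.4, 38.5 and 3.33 units in PL. Its log2 fold change in W2 vs PL was -4.80 (adjusted p = 0.00061) and -5.29 after median ratio scaling (adjusted p = 0.0011). PLIN2, the main droplet coat protein of secreting cells, was at 862 ± 323 units in PL and 1307 ± 141 in W2 (n = 3 each), a call as deposited that was lost after scaling.

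Of 10 regulators of lipid genes, INSIG1 was called higher and PPARGC1A lower in PL vs MG as deposited. With median ratio scaling, 3 were called higher and none lower: INSIG1 and, outside the naming rule and singled out after their values were seen, PPARD (0.57, adjusted p = 0.044) and NR1H3 (1.48, 0.023), while PPARGC1A was at -0.50 (0.223). INSIG1, which holds back SREBP processing, stood at 7.73 to 11.8 units in MG, 114, 73.7 and 30.6 in PL and 10.9 to 13.1 in W2. Its log2 fold change was 2.60 in PL vs MG (adjusted p = 0.00063), -2.33 in W2 vs PL (adjusted p = 0.00082) and 3.25 and -3.06 after median ratio scaling, called in each. SREBF1 and PPARG were called higher in W2 vs PL as deposited (0.78 and 3.12, adjusted p = 0.022 and 0.043), and neither after median ratio scaling (0.036 and 2.58, adjusted p = 0.963 and 0.174). PPARG, the adipogenic nuclear receptor, was listed at 0 in PL replicates 3 and 6 and in MG replicate 3. Among 6 partners and inhibitors of LPL, 4 were measured, none was called in PL vs MG as deposited or after median ratio scaling, and APOC2, the cofactor of LPL, was listed at 0 in all 6 sows of EL and PL and in MG replicates 1 and 6, and stood at 0.906 to 1.21 units in W2, where it was called higher than in PL (adjusted p = 0.011). ANGPTL4, an inhibitor of LPL outside the naming rule and singled out after its values were seen, stood at 12.5 to 25.5 units in MG, 9.37, 100.4 and 117 in PL and 10.9 to 21.3 in W2. It was called lower after median ratio scaling in W2 vs PL (-2.37, adjusted p = 0.031) and higher in lactation vs outside lactation (1.64, adjusted p = 0.025), and was at 2.18 in PL vs MG (adjusted p = 0.051). Outside the naming rule and chosen for their roles, GPIHBP1, which holds LPL at the capillary wall, was measured at 22.3 ± 6.07 units in MG and 16.9 ± 5.80 in PL (n = 3 each) and LMF1, needed for LPL folding, at 12.8 ± 3.57 and 13.9 ± 1.59.

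**Figure D4:**
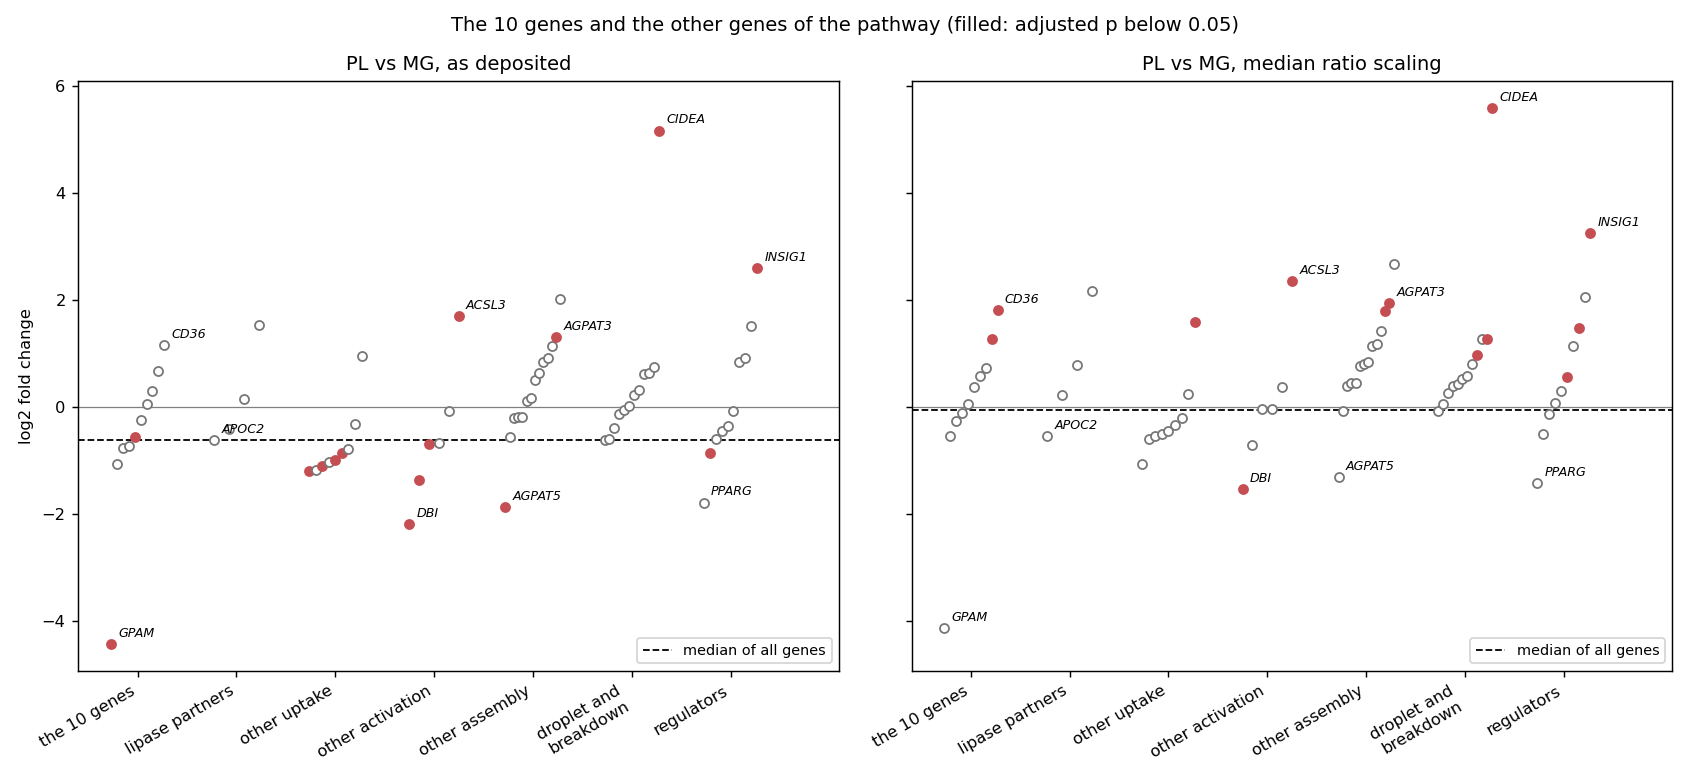
Log2 fold change in PL vs MG (vertical axis) of the 10 genes and of the measured genes of 6 lists of the same pathway (horizontal axis), as deposited on the left and after median ratio scaling on the right. Each point is a gene, red and filled where the adjusted p was below 0.05, and the dashed line is the median of all genes; CIDEA, INSIG1, ACSL3, AGPAT3 and DBI were called on both sides.

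Across the 15 sows, the genes of the set did not move as a single block. The log2 levels of GPAM and DGAT1 had a Pearson's r of 0.88, VLDLR and DGAT1 0.70 and LPL and FABP3 0.62, while FABP3 and DGAT2 had -0.72. These are descriptions over sows of 5 stages that share their scaling. GPAM was listed at 0 in PL replicates 2 and 6, which also had the lowest DGAT1 values (5.47 and 5.22 units). Each r of GPAM given here includes those sows, and none was computed without them. Among about 5483 named genes with a mean of at least 10 units, those most like FABP3 were ZCCHC17 (r = 0.94), FKBP11 (0.90) and MFGE8 (0.87), the last a protein of the milk fat globule. For CD36 they were CREB3L1 (0.81), DNASE1L1 (0.77) and SLC31A1 (0.73), for LPL GPR155 (0.87), MUC15 (0.84) and UCHL3 (0.79), and for VLDLR EPB41L5 (0.90), MARCH5 (0.86) and UBXN6 (0.82). DGAT1 was most like LAMC3 (0.95), BPHL (0.95) and HINT2 (0.95), and GPAM most like ITGA5 (0.97), ZNF703 (0.96) and PPM1F (0.96). BPHL and ZNF703 were listed at 0 in the same 2 PL sows as GPAM.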

How the data were processed

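Per the labels and the study's methods, the authors trimmed the reads of TruSeq libraries with Trimmomatic, aligned them to Sscrofa11.1 with HISAT2, assembled and quantified transcripts with StringTie, and dropped those that stayed under an FPKM of 0.5 throughout. The authors deposited 1 value per transcript for 30 samples, and the sums show that these deposited values are on the TPM scale. Whether they include the RUVs correction that the methods name is not given in the sources used here. Of 61773 identifiers, 32396 matched a RefSeq accession and 279 a gene symbol, 51 did not match and 29047 were assembled.

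Transcripts were summed per gene and tested as log2(sum + 0.5) with limma 3.58.1 in R 4.3.3, with trended variance, the 15 counted samples of 5 stages in a single fit, and Benjamini-Hochberg adjustment over 26012 genes or loci (61773 for transcripts). The labels name no batch. Replicates are different sows. The members and lists were chosen with earlier results of these data known. Of each list, at most 5 genes called in a comparison were to be named, by smallest adjusted p, and for likeness the 3 genes of highest r per member among reference genes with a mean of 10 units or more. On simulated data of 26012 genes for PL vs MG, 55 of 100 planted changes of log2 2 and 77 of 100 of log2 3 were called, with 5 unchanged genes. The simulation had few changed genes, independent noise and no shift common to all genes. In the data, 25.2% of all genes were called in PL vs MG, so these rates do not describe that comparison itself. Alternatives were other pseudocounts (0.1 and 1), a filter on low values, median ratio scaling (genes with at least 10 units in every sample), quantile normalization, other choices of samples, the replicate number as a block, the study's fold threshold, and the highest transcript of each gene.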

Additional observations from a re-analysis of the deposited data

Results flagged for a closer look

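Of 28 groups of values examined, 4 held a sample farther from the rest than Dixon's 95% limit allows, and chance alone gives about 1 in 20. On the log2(units + 0.5) scale, VLDLR in the 6 lactating sows was lowest in PL replicate 2, at 2.85 (nearest other sow 3.69). ACSL1 in the 9 sows outside lactation was lowest in LG replicate 1, where it was listed at 0, at -1.0 (nearest 1.26). AGPAT1 in the lactating sows was highest in PL replicate 3, at 0.989 (nearest -0.201). The log2 ratio of DGAT1 to DGAT2 in the lactating sows was lowest in PL replicate 6, at 0.41 (nearest 1.93).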

How the results depend on the processing

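Counts of the 10 genes called, given in this order of comparisons where they moved, depended on the setting. Shares of all genes called are given above for median ratio scaling and the fold threshold alone. The other counts in this section have no such background and are not read as a result about the 10 genes. With all 6 samples per stage they were 1 in LG vs MG, 2 in EL vs LG, 4 in PL vs EL, 7 in W2 vs PL, 4 in PL vs MG, 1 in W2 vs MG, 3 in EL vs MG, 5 in PL vs LG, 1 in W2 vs LG, 7 in W2 vs EL and 8 in lactation, which counts near-copies as sows. The near-identical samples taken as 1 further sample lie close to the stage mean for most genes, which narrows the fitted spread by construction. With that sample added the counts were 2 in PL vs EL, 5 in W2 vs PL, 4 in PL vs MG, 4 in PL vs LG and 5 in lactation. With the compared stages alone, or with the transcript of highest mean for each gene, they were 0 in W2 vs PL, PL vs MG and PL vs LG, and with that transcript also 0 in lactation. With a log2 fold change of 2 or more required as well they were 1 in each of these 3 pairs (GPAM) and 0 in lactation. Median ratio scaling gave 2 in W2 vs PL, 2 in PL vs MG, 1 in PL vs LG and 2 in lactation, and quantile normalization 2, 1, 1 and 2. Under both, the genes called were CD36 or LPIN1 and none of those called as deposited.

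Leaving out each counted sow in turn gave 1 to 4 in W2 vs PL, 0 to 2 in PL vs MG, PL vs LG and PL vs EL, 0 to 1 in W2 vs EL, 1 to 3 in lactation and 0 in the other 5 comparisons. The single differences that turned their sign without 1 sow had passed no test: LPL from -0.29 to 0.51 in lactation, -0.67 to 0.94 in W2 vs PL and -1.59 to 0.023 in PL vs MG, FABP3 from -0.47 to 0.20 in W2 vs PL and -0.34 to 0.34 in PL vs MG, VLDLR from -0.44 to 0.059 in PL vs MG, and AGPAT1 from -0.10 to 0.29 in lactation and -0.13 to 0.81 in PL vs MG. For the ratios the ranges were 0.16 to 0.60 (DGAT1 to DGAT2), -0.53 to -0.13 (FABP3 to CD36), 0.02 to 0.83 (LPL to VLDLR) and 1.50 to 3.02 (AGPAT1 to GPAM).

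Other settings turned the sign of these log2 fold changes. Median ratio scaling and quantile normalization gave 0.19 and 0.20 for VLDLR and 0.042 and 0.078 for DGAT1 in lactation, -0.62 and -0.55 for LPL in W2 vs PL, and 0.38 and 0.33 for VLDLR and 0.056 and 0.033 for DGAT1 in PL vs MG. The transcript of highest mean gave 0.063 for VLDLR and -0.21 for LPIN1 in lactation, and 0.14 for VLDLR, 0.61 for ACSL1, -0.44 for LPIN1 and 0.28 for DGAT1 in PL vs MG, and -0.23 for LPIN1 in PL vs LG. All 6 samples gave -0.093 for AGPAT1 in lactation and -0.25 in PL vs MG. The cause was not tested for any of these.

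The replicate number as a block gave 0 genes called in PL vs LG, PL vs MG and lactation and turned FABP3 in PL vs MG to -0.056. Over 19 pairs with the same number, deviations from the stage means correlated at -0.10 to 0.13 (median -0.03). Over 71 pairs with different numbers the range was -0.10 to 0.17 (median -0.04). High values came from pairs such as MG replicate 1 with LG replicate 3 (0.17) and MG replicate 3 with LG replicate 4 (0.16). The number is therefore not shown to pair the sows. Whether sows of different stages belong together under another grouping was not tested, and no fit allowed for it.

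With 3 sows per stage and no reads per transcript, changes of less than several fold in LPL, ACSL1 and GPAM could not be resolved, and the counting error of low values such as those of AGPAT1 could not be estimated.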
